A study of Arabidopsis thaliana with 8 samples.

Results

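The nuclear genome of Arabidopsis carries a family of 9 beta-tubulin genes, *TUB1* to *TUB9*, which were taken here by their gene identifiers from the 37336 genes of the count table. All 9 passed the expression filter and were among the 23916 genes tested. Messenger RNA from rosette leaves, with several plants pooled per sample, was read out in 8 libraries, a pair for each of 4 genotypes of the Col-0 ecotype: the wild type, the single mutants *mips1* and *somi2*, and the *mips1 somi2* double mutant. *mips1* is the T-DNA line *mips1-1*, in which myo-inositol-1-phosphate synthase 1 is disrupted and lesions form in long days, and *somi2* is a mutation in *BIG* that was found by its suppression of these lesions. The labels name the *somi2* lines by the gene only (big, mips1 big), and the allele is taken from the study's text. According to the labels, plants of every genotype spent 1 week on medium under long days (16 h of light), 2 weeks in soil under short days (8 h of light) and then 5 days under long days. The study's RNA-seq methods give other lengths for the short-day and long-day periods. No source says whether the 2 libraries of a genotype came from separately grown plants, so that the p-values measure the spread between these libraries only, which may be technical.

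Microtubules are built of dimers of alpha- and beta-tubulin. In growing plant cells they form the cortical array that guides cellulose synthase complexes along the plasma membrane, and in dividing cells they form the preprophase band, the spindle and the phragmoplast, which builds the new cell wall. The beta-tubulin isotypes of a plant are alike over most of their length and differ mainly in the acidic carboxy-terminal tail, which faces outward from the microtubule. Because their transcripts are abundant in most tissues, several of these genes have served as reference genes in RT-qPCR.

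Libraries held 50123257 to 104501879 counts, of which 0.0780% to 0.153% fell on the 9 genes. *TUB1* in *mips1* had the fewest counts, 246 and 385. No pair of replicates agreed within sampling noise: the chi-square per degree of freedom over genes was 4.95 in *somi2*, 8.7 in *mips1*, 10.8 in *mips1 somi2* and 128 in Col-0, whose libraries differed most from each other. *MIPS1* reached 120 and 152 CPM in the Col-0 libraries and 104 and 94.7 CPM in those of *somi2*, against 5.30 and 6.12 CPM in *mips1* and 9.85 and 10.8 CPM in the double mutant. *BIG* reached 113 and 132 CPM in Col-0 and 205 and 212 CPM in *mips1*, against 57.2 and 62.1 CPM in *somi2* and 93.4 and 89.9 CPM in the double mutant, where it was thus higher than in *somi2* (log2 fold change 0.62). The summed level of 5 rosette leaf markers was 53640 to 55385 CPM in Col-0 and 15704 to 15731 CPM in *mips1*, against at most 0.469 CPM for 4 root markers, 1.1 CPM for 3 pollen markers and 2.54 CPM for 3 flower markers in any library. In such bulk libraries, fewer cells of a type and less RNA per cell cannot be told apart.

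The coding sequences of the 9 genes were 78.9% to 97.6% identical in pairs (median 80.5% over 36 pairs). *TUB2* and *TUB3* were the nearest pair, with 32 differences in 1350 coding positions and none in the residues they encode. They lie in tandem on the plus strand of chromosome 5, *TUB2* from 25181296 to 25183811 and *TUB3* from 25184258 to 25186777, with 446 bases between them. The next pairs were *TUB1* with *TUB5* (87.5%) and *TUB4* with *TUB9* (87.4%). The last 63 bases of each coding sequence, stop codon included, are shown because they encode the tail, by which isotypes differ, and because they show how near the *TUB2* and *TUB3* transcripts are. They were read from the RefSeq copy of the TAIR10 genome, 5′ to 3′ on the coding strand, with the stop codon in capitals.
*TUB1*, AT1G75780 (chr1:28451378-28451440, minus strand): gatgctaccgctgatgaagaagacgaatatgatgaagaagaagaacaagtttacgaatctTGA
*TUB2*, AT5G62690 (chr5:25183439-25183501, plus strand): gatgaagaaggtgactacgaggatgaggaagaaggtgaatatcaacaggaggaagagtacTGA
*TUB3*, AT5G62700 (chr5:25186364-25186426, plus strand): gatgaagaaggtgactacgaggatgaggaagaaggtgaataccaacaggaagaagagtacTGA
*TUB4*, AT5G44340 (chr5:17859442-17859504, minus strand): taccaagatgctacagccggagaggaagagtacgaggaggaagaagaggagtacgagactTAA
*TUB5*, AT1G20010 (chr1:6938033-6938095, minus strand): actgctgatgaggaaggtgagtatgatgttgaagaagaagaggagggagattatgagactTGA
*TUB6*, AT5G12250 (chr5:3961317-3961379, minus strand): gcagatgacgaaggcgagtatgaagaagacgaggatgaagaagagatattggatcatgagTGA
*TUB7*, AT2G29550 (chr2:12644258-12644320, minus strand): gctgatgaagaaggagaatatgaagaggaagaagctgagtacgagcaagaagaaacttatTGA
*TUB8*, AT5G23860 (chr5:8044466-8044528, plus strand): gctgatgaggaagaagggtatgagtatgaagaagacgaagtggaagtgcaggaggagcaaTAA
*TUB9*, AT4G20890 (chr4:11183778-11183840, plus strand): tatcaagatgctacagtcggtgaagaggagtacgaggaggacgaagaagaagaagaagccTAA

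Repeated gaa, gag, gat and gac codons, for the acidic residues glutamate and aspartate, run through all of these ends. A read of 75 bases, the length sequenced, can be placed on *TUB2* or *TUB3* only where the copies differ. Of the 75-base windows along their merged exons, 282 were found in both genes, which is 15.2% of the windows of *TUB2* and 15.1% of those of *TUB3*. The windows of the other 7 genes occurred nowhere else in the genome. Multi-mapped reads were admitted in the counting, which required a mapping quality of at least 10, a score that STAR's defaults do not give to such reads. The sources do not say whether the default scores were kept, so the shared windows were either left out or counted for both genes. In the first case the levels of both genes per length are understated, and in the second each read of a shared window adds the same to both counts, which draws their ratio toward 1.

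**Figure D1:**
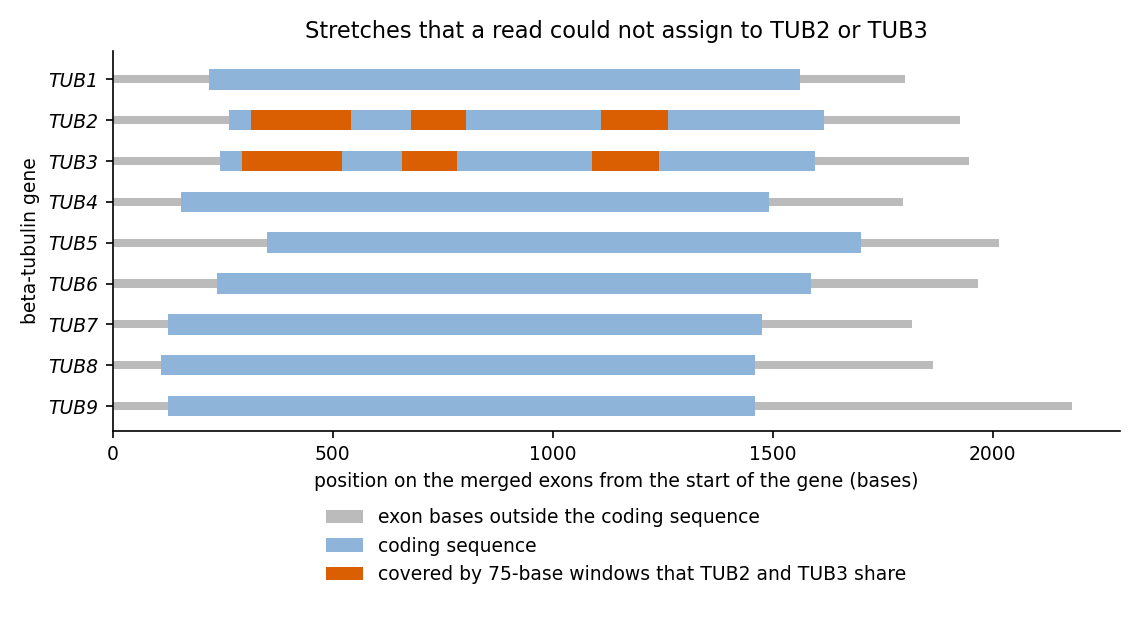
Merged exons of the 9 beta-tubulin genes in bases from the start of each gene, with the coding sequence in blue and the other exon bases in grey. Orange marks stretches covered by 75-base windows that *TUB2* and *TUB3* share, 282 windows in each, and no other gene of the family has any.

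Some genes of the family also overlap a neighbour, and the counting ignored the strand and gave a read to every gene it touched. *TUB1* shares 609 exon bases with AT1G75785 on the other strand, and the counts of that locus were 58.4% to 78.8% of those of *TUB1*. *TUB7* shares 414 exon bases with *RPC14*, a subunit gene of RNA polymerase on the other strand, whose counts were 36.3% to 56.7% of those of *TUB7*. Within the shared bases, reads of these 2 genes and of their antisense partners cannot be told apart. *TUB6* shares 83 exon bases with AT5G12240, annotated as an octanoyltransferase, on the same strand. *TUB9* shares 457 exon bases with *MS5*, which had 1 to 6 counts in every library. Almost no read therefore lay in those 457 bases, which are part of the 2180 bases by which the level of *TUB9* was divided, so that its level per length is understated.

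In Col-0, *TUB4*, *TUB5* and *TUB6* made up 66.7% of the beta-tubulin transcripts. Levels between genes are compared as RPKM, the count per kilobase of merged exon and per 1e+06 counts after TMM scaling. *TUB4*, in which known point mutations make roots and shoots twist, stood at 196 and 214 RPKM in the 2 Col-0 libraries. *TUB5* followed at 191 and 205 RPKM. These ranges overlap, so the order of the leading pair is not resolved. *TUB6* reached 145 and 155 RPKM, *TUB2* 76.8 and 77.1 RPKM, and *TUB3* 62.3 and 64.6 RPKM. *TUB7* reached 47.8 and 57.6 RPKM, *TUB9* 41.6 and 47.2 RPKM, and *TUB8* 28.6 and 32.6 RPKM. *TUB1*, known as a gene of roots and dark-grown seedlings whose transcript is reduced by light, was lowest at 7.69 and 8.67 RPKM. From *TUB6* down, no gene overlapped the next one in this order, and the mean of *TUB4* was 25 times that of *TUB1*. The places of *TUB7* and *TUB9* depend on the length used: over the 1723 exon bases that *TUB9* does not share with *MS5*, an alternative chosen after seeing the data, it stood at 52.6 and 59.7 RPKM in Col-0, which overlaps *TUB7*.

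**Figure D2:**
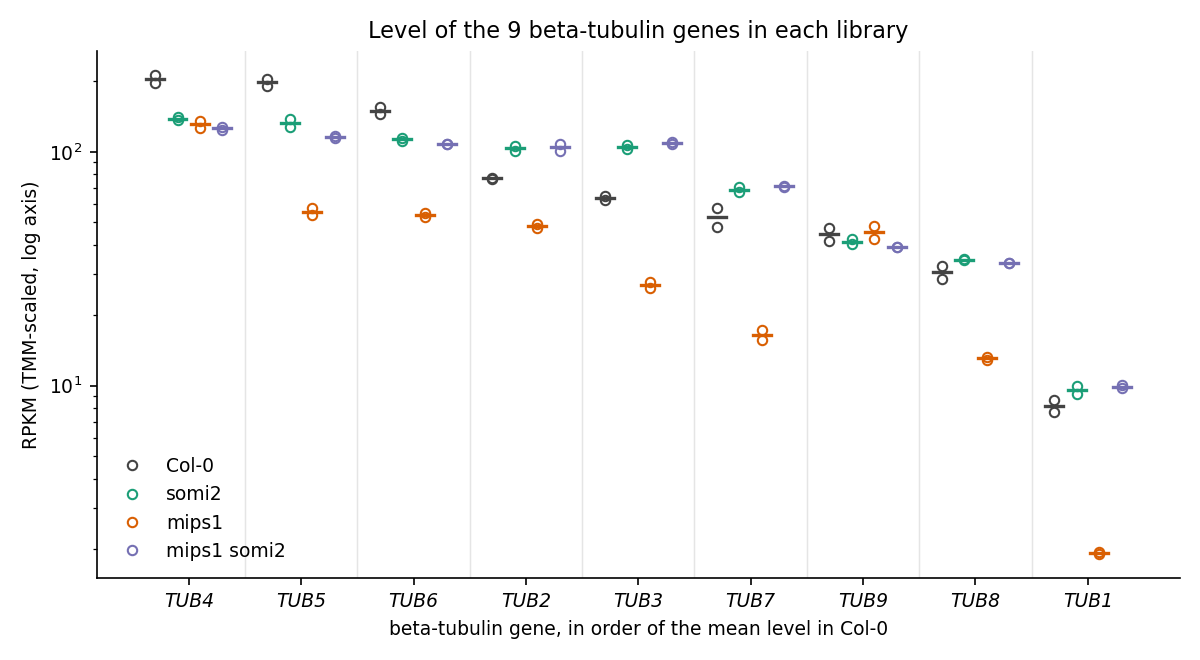
Level of each beta-tubulin gene in RPKM on a log axis, with 1 open circle per library and a short line at the mean of the 2 libraries of a genotype. The *mips1* libraries lie lowest for *TUB1*, *TUB2*, *TUB3*, *TUB5*, *TUB6*, *TUB7* and *TUB8*, while those of *TUB9* overlap the Col-0 libraries.

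The order changed with the genotype. In *somi2*, *TUB3* (102 and 107 RPKM) and *TUB2* (101 and 106 RPKM) stood level with each other just below *TUB6* (111 and 115 RPKM). In *mips1 somi2*, *TUB6* (107.96 and 108.34 RPKM) overlapped both *TUB3* (108.28 and 109.66 RPKM) and *TUB2* (101.06 and 108.01 RPKM). Both *TUB3* libraries lay above both *TUB2* libraries, by a narrow margin. In *mips1*, *TUB9* moved up to the fifth place, overlapping *TUB2* (and to 53.7 and 60.7 RPKM over its unshared bases, overlapping *TUB5* and *TUB6*), and *TUB4* stood alone at the top with 127 and 135 RPKM. Per exon base the highest and lowest means were those of *TUB4* and *TUB1* in every genotype, 67.9 times apart in *mips1*, but 14.4 times in *somi2* and 12.8 times in the double mutant. Per uniquely placed window, *TUB3* and not *TUB4* led narrowly in the double mutant, but this measure applies only if reads of shared windows were not counted.

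As shares of the summed RPKM, *TUB4* took 24.7% ± 0.14 (SD, n = 2) of the Col-0 transcripts and 33.4% ± 0.0263 of those of *mips1*, but 18.5% ± 0.227 and 17.6% ± 0.0933 of those of *somi2* and the double mutant. *TUB9* took 11.5% ± 0.478 in *mips1*, against 5.35% ± 0.183 in Col-0, 5.53% ± 0.0353 in *somi2* and 5.45% ± 0.0915 in the double mutant. Its share in *mips1* thus exceeded that in the other genotypes, although its level there overlapped that in Col-0. *TUB2* and *TUB3* together took 17.0% ± 0.715 in Col-0, 19.2% ± 0.291 in *mips1*, 27.9% ± 0.0365 in *somi2* and 29.8% ± 0.38 in the double mutant. *TUB5* took 23.9% ± 0.0766 in Col-0 and less in every mutant, 17.8% ± 0.317 in *somi2*, 16.1% ± 0.0147 in the double mutant and 14.2% ± 0.0647 in *mips1*. Shares do not depend on how the libraries were scaled. When levels were taken per uniquely placed window in place of per exon base, an alternative chosen after seeing the data, *TUB2* and *TUB3* took 10.6% and 8.74% in Col-0, 14% and 7.83% in *mips1* and 15.6% and 15.7% in *somi2*. In the double mutant they took 16.3% and 17% by this measure, beside 16.8% for *TUB4*. If reads of shared windows were counted, which is not known, this measure overstates *TUB2* and *TUB3*.

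**Figure D3:**
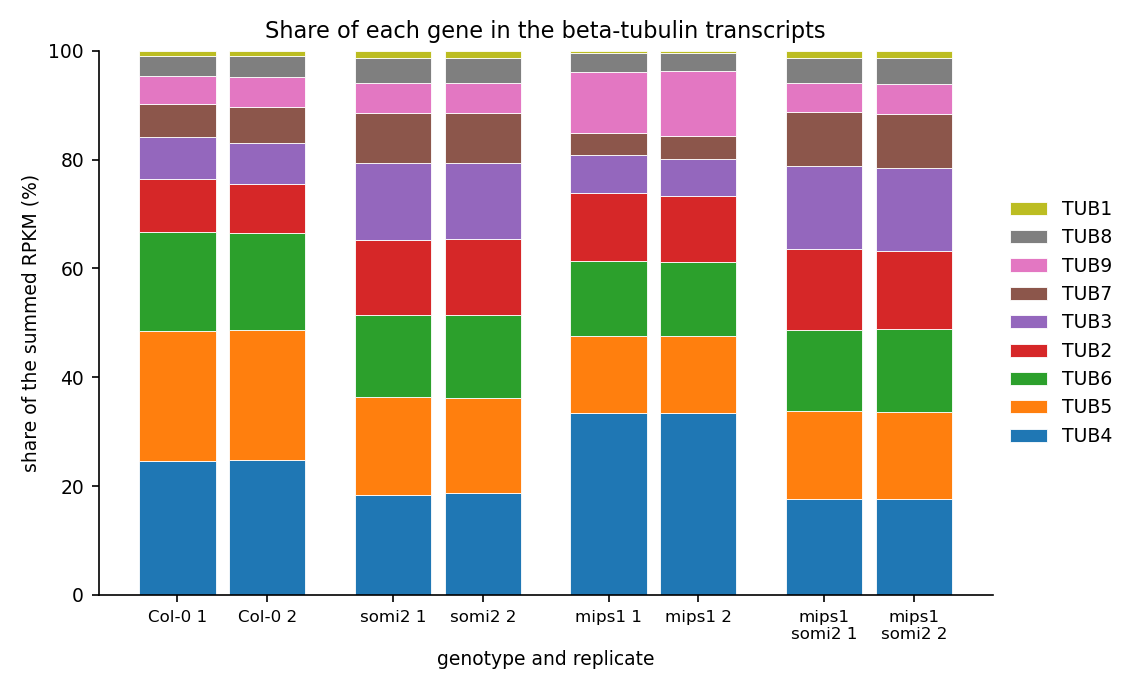
Share of each beta-tubulin gene in the summed RPKM of the family, in percent, with 1 bar for each of the 8 libraries. *TUB4* (blue) and *TUB9* (pink) take their widest share in the *mips1* bars, and *TUB2* (red) and *TUB3* (purple) theirs in the *mips1 somi2* bars.

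Although their coding sequences are nearly the same, the 2 tandem copies did not move by the same amount. The ratio of *TUB2* to *TUB3* counts, which no scaling alters, was 1.22 and 1.18 in the Col-0 libraries and 1.78 and 1.75 in those of *mips1*. It was 0.978 in both libraries of *somi2*, and 0.975 and 0.924 in those of the double mutant. *TUB2* thus had more counts than *TUB3* in Col-0 and *mips1*, and nearly as many in both *somi2* lines. Their levels per length overlapped in *somi2*. In the double mutant both *TUB3* libraries lay narrowly above both *TUB2* libraries. The genotypes did not overlap in this ratio, but with 2 libraries against 2 an exact permutation test cannot give a two-sided p below 0.333.

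The regions before the 2 copies are less alike than their transcripts. Of 278 aligned columns in the 250 bases before each gene, 69.1% were identical, against 88.2% over the merged exons. The upstream windows of *TUB2* and *TUB3* are shown because these near-identical genes differed in their response, and those of *TUB7* and *TUB9* because these genes had contrasting responses to *mips1*. They run 5′ to 3′ toward the gene start, and capitals mark matches to the motifs searched.
*TUB2*, AT5G62690 (chr5:25181046-25181295, plus strand): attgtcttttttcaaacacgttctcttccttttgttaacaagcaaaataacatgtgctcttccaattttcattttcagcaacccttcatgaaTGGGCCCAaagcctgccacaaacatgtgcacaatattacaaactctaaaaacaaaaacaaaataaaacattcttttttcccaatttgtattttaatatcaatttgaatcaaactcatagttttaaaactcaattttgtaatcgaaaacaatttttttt
*TUB3*, AT5G62700 (chr5:25184008-25184257, plus strand): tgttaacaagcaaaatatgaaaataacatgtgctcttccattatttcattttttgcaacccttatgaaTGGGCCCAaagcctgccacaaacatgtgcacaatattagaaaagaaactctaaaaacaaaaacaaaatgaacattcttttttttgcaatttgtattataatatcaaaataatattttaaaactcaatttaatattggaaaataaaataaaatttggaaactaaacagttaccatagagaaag
*TUB7*, AT2G29550 (chr2:12646058-12646307, minus strand): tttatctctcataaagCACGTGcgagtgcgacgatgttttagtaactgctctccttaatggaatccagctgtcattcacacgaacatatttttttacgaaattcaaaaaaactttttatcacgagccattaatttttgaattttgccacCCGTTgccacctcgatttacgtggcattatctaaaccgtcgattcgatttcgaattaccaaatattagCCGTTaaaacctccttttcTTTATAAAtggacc
*TUB9*, AT4G20890 (chr4:11181842-11182091, plus strand): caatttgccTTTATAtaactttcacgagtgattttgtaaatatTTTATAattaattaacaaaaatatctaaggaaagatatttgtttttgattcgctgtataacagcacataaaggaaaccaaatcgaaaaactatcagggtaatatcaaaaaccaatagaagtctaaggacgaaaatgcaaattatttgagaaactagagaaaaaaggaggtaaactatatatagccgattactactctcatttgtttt

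The motifs were searched on both strands of the 250-base windows of all 9 genes and of 27443 genes of the RefSeq annotation. TGGGCC, the core of the site II element bound by TCP factors, occurred before *TUB2*, *TUB3* and *TUB5* and in 13.6% of all windows. In *TUB2* and *TUB3* the matches on both strands overlap, and the first base of the match lies at -158 and -182 relative to the gene start. AACGG, the core of the mitosis-specific activator element bound by MYB3R factors, occurred before *TUB7* and *TUB8* and in 20.6% of all windows. TATAAA, the TATA box, occurred before *TUB5*, *TUB7*, *TUB8* and *TUB9* and in 47.4% of all windows, and CACGTG, the G-box, before *TUB7* only and in 6.49%. The telo-box AAACCCTA (4.51% of all windows) and GAGAGAGA (4.93%) matched none of the 9 windows. A match is a description of these letters only.

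In *mips1*, nearly the whole family was lower than in Col-0. The summed level of its transcripts was 730 and 779 CPM, against 1536 and 1660 CPM in Col-0, and its mean was 47.2% of the Col-0 mean. Of the 9 genes, 8 were lower in *mips1* than in Col-0 and none was higher, where 37.1% of all genes tested were lower and 36% higher. Genes are called lower or higher at a Benjamini-Hochberg adjusted p under 0.05 by the quasi-likelihood test of edgeR. For the same 8 genes both *mips1* libraries lay below both Col-0 libraries, as they did for 42.9% of all genes, while 41.3% of all genes had them above. The median log2 fold change of the 9 genes was -1.23, against -0.03 over all genes tested.

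*TUB1* fell most on the log2 scale, from 13.8 and 15.6 CPM in Col-0 to 3.44 and 3.51 CPM in *mips1*, a log2 fold change of -2.09 (standard error 0.09, edgeR adjusted p = 3.24e-10). *TUB5* fell from 384 and 414 CPM to 108 and 116 CPM, a log2 fold change of -1.83 (standard error 0.07, edgeR adjusted p = 2.34e-10). Measured in CPM, this was the largest loss of the family. *TUB7* fell from 86.9 and 105 CPM to 28.5 and 31.4 CPM (log2 fold change -1.68, standard error 0.09), and *TUB6* from 285 and 304 CPM to 104 and 108 CPM (log2 fold change -1.48, standard error 0.07). In each of these genes, the *mips1* libraries held less than the lower Col-0 library by a wide margin.

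*TUB3* fell from 121 and 126 CPM to 51.1 and 53.9 CPM (log2 fold change -1.23, standard error 0.07). Its tandem copy *TUB2* fell from 148 and 149 CPM to 91.0 and 94.4 CPM (log2 fold change -0.68, standard error 0.07), and the 95% intervals of the 2 genes, -1.37 to -1.09 and -0.82 to -0.53, did not overlap. Added to 1 gene before the fit, the copies gave a log2 fold change of -0.90 (standard error 0.07). *TUB8* fell from 53.4 and 60.8 CPM to 24.0 and 24.8 CPM (log2 fold change -1.23, standard error 0.07). *TUB4*, which with *TUB5* led the family per length in Col-0, fell from 352 and 384 CPM to 228 and 243 CPM (log2 fold change -0.65, standard error 0.07). The adjusted p of these 4 genes ran from 2.77e-09 to 3.37e-06 in edgeR's quasi-likelihood test.

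*TUB9*, described in Arabidopsis as a gene of anthers and pollen, stood apart from the other 8. It had 90.7 and 103 CPM in Col-0 and 92.5 and 105 CPM in *mips1*, so that the libraries overlapped, and its log2 fold change was 0.03 (95% interval -0.15 to 0.20, edgeR adjusted p = 0.79). Scaled by library size alone, which raised the median gene by 0.33 in this comparison, its log2 fold change was 0.35 and it was called higher, while the other 8 remained lower, and without replicate 1 of Col-0 or replicate 2 of *mips1* it was -0.06 and -0.04. Its nearest relative by coding sequence, *TUB4*, had with *TUB2* the smallest falls. The 3 pollen markers summed to 0.334 to 0.435 CPM in Col-0 and 0.446 to 0.573 CPM in *mips1*.

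**Figure D4:**
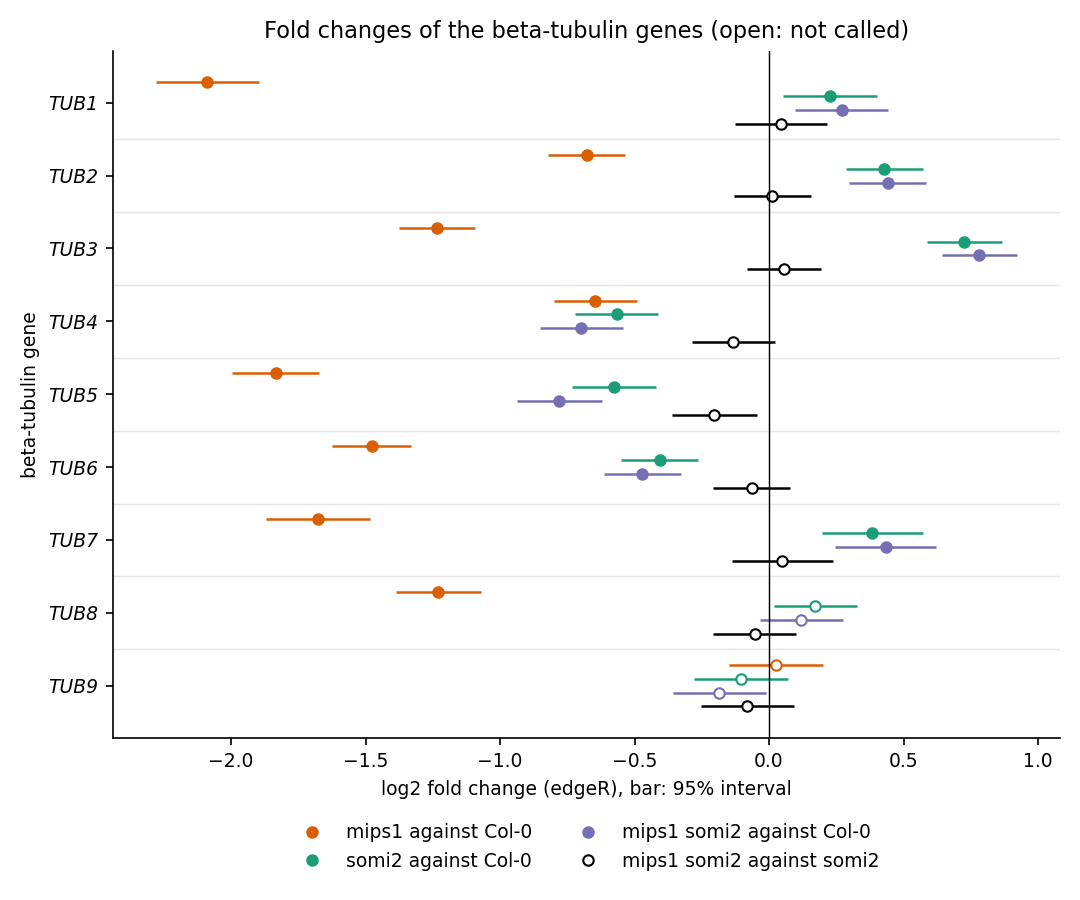
Log2 fold change of each beta-tubulin gene in 4 comparisons, with 95% intervals as bars, filled points for an adjusted p under 0.05 and open points otherwise. The orange points (*mips1* against Col-0) lie left of 0 for 8 genes, from -2.09 to -0.65, the green and purple points (both *somi2* lines against Col-0) lie on both sides, and all 9 black points (*mips1 somi2* against *somi2*) are open.

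In *somi2*, the summed level was 1472 and 1407 CPM, 90.1% of the Col-0 mean, and the make-up of the family differed. Of the 9 genes, 4 were higher and 3 lower than in Col-0, where 25.6% of all genes tested were higher and 23.6% lower. The libraries did not overlap for 5 genes that lay above Col-0 and 3 that lay below, against 36.7% and 35.2% of all genes. The 3 lower genes were the 3 most abundant in Col-0. *TUB4* was at 252 and 245 CPM (log2 fold change -0.57, standard error 0.07), *TUB5* at 277 and 258 CPM (log2 fold change -0.58, standard error 0.07) and *TUB6* at 226 and 219 CPM (log2 fold change -0.41, standard error 0.07), all below both Col-0 libraries.

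Both tandem copies were higher. *TUB3* reached 209 and 199 CPM, a log2 fold change of 0.73 (standard error 0.06, edgeR adjusted p = 1.81e-06). *TUB2* reached 204 and 195 CPM, a log2 fold change of 0.43 (standard error 0.07, edgeR adjusted p = 0.000166). *TUB7* reached 128 and 122 CPM (log2 fold change 0.38, standard error 0.09, edgeR adjusted p = 0.0028). *TUB1*, at 18.0 and 16.6 CPM, had a log2 fold change of 0.23 (standard error 0.08, edgeR adjusted p = 0.034), but this call was lost with DESeq2 (adjusted p = 0.15), with RLE size factors (0.055 in edgeR), with the libraries of these 2 genotypes alone (0.0736 in edgeR), without replicate 1 of Col-0 (0.151), without replicate 1 of *somi2* (0.25) and without its replicate 2 (0.0564). *TUB8* (64.7 and 64.2 CPM) lay above both Col-0 libraries with a log2 fold change of 0.17 (edgeR adjusted p = 0.061), and was called without replicate 2 of Col-0 (0.27, edgeR adjusted p = 0.0027) and when at least 10 counts were required in every library (0.19, edgeR adjusted p = 0.0405). *TUB9* (92.5 and 87.7 CPM) had a log2 fold change of -0.10 (95% interval -0.28 to 0.07, edgeR adjusted p = 0.305), but without replicate 1 of Col-0 it was -0.19 and called lower (edgeR adjusted p = 0.0371). Scaling by library size alone moved the median gene by 0.27 and gave 5 higher and 2 lower genes, with *TUB8* higher, *TUB6* no longer called and *TUB9* at 0.17.

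The *mips1 somi2* double mutant gave values against Col-0 that lay beside those of *somi2*, and both comparisons use the same Col-0 libraries. The summed level was 1394 and 1366 CPM, 86.4% of the Col-0 mean. Again 4 genes were higher and 3 lower, where 31.1% of all genes tested were higher and 30.7% lower. Without overlap between the libraries, 5 genes lay above and 4 below Col-0, against 39.4% and 38.4% of all genes. *TUB3* stood at 213 and 211 CPM (log2 fold change 0.78, standard error 0.06) and *TUB2* at 208 and 195 CPM (log2 fold change 0.44, standard error 0.07). *TUB7* stood at 130 and 129 CPM (log2 fold change 0.43, standard error 0.09). *TUB1* stood at 17.6 and 18.1 CPM (log2 fold change 0.27, standard error 0.08, edgeR adjusted p = 0.0109), and its call was lost without replicate 1 of Col-0 (edgeR adjusted p = 0.0523) or replicate 2 of the double mutant (0.055). *TUB5* was lower at 235 and 230 CPM (log2 fold change -0.78, standard error 0.07), *TUB4* at 230 and 224 CPM (log2 fold change -0.70, standard error 0.07) and *TUB6* at 213 and 212 CPM (log2 fold change -0.47, standard error 0.07). *TUB8* and *TUB9* were not called (log2 fold changes 0.12 and -0.18, edgeR adjusted p = 0.163 and 0.0624). *TUB8* was called higher without replicate 2 of Col-0 and *TUB9* lower without its replicate 1 (edgeR adjusted p = 0.00751 and 0.00306). By library size alone, which raised the median gene by 0.38, *TUB6* was not called, and *TUB8* and *TUB9* were called higher.

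Between the double mutant and *somi2*, where the *mips1* mutation is the only labelled difference, none of the 9 genes was called in edgeR or in DESeq2, and 1 gene had an unadjusted p under 0.05 in edgeR. Of all genes tested, 8.46% were higher and 10.8% lower in this comparison. The libraries did not overlap for 2 genes that lay higher and 5 that lay lower in the double mutant, against 32.2% and 33.5% of all genes. The log2 fold changes ran from -0.20 to 0.05, with a median of -0.05. The gene with the unadjusted p under 0.05 was *TUB5* (95% interval -0.36 to -0.05, edgeR adjusted p = 0.0694), which was called when only these 2 genotypes entered the fit (0.0114). For *TUB1*, which had fallen by 2.09 between Col-0 and *mips1*, the interval was -0.13 to 0.22.

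Between the double mutant and *mips1*, 7 of the 9 genes were higher, where 39.1% of all genes tested were higher and 38.9% lower. Each of the 7 had both libraries of the double mutant above both *mips1* libraries, as had 45.6% of all genes, and 1 gene had them below, as had 44.8%. The log2 fold changes were 2.36 for *TUB1*, 2.11 for *TUB7*, 2.01 for *TUB3*, 1.35 for *TUB8*, 1.12 for *TUB2*, 1.05 for *TUB5* and 1.01 for *TUB6*, with standard errors from 0.07 to 0.09. *TUB4* was not called, with 230 and 224 CPM against 228 and 243 CPM (log2 fold change -0.05, edgeR adjusted p = 0.508). *TUB9* was called lower, with 85.1 and 85.3 CPM against 92.5 and 105 CPM (log2 fold change -0.21, edgeR adjusted p = 0.0293). That call was lost by library size alone (0.0913), without replicate 2 of *mips1* (0.204) and without replicate 1 or 2 of the double mutant (0.102 and 0.128). Over the 3 mutant genotypes *TUB4* stayed between 224 and 252 CPM, and it was lower than in Col-0 in each of them.

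Whether *mips1* acted differently on a gene with and without a functional *BIG* was tested as an interaction, the log2 fold change of *mips1 somi2* against *somi2* minus that of *mips1* against Col-0. It was positive for 8 of the 9 genes, where 30.8% of all genes tested had a positive and 31.2% a negative interaction called. On the log2 scale it was 2.13 for *TUB1*, 1.73 for *TUB7*, 1.63 for *TUB5*, 1.41 for *TUB6*, 1.29 for *TUB3*, 1.18 for *TUB8*, 0.69 for *TUB2* and 0.51 for *TUB4*, with standard errors from 0.09 to 0.12. For *TUB9* it was -0.11 (95% interval -0.35 to 0.14, edgeR adjusted p = 0.44), and -0.32 by library size alone, when it was called.

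The 6 alpha-tubulin genes, which encode the partner of beta-tubulin in the dimer, gave summed levels of 1514 and 1559 CPM in Col-0 and 752 and 770 CPM in *mips1*. They stood at 1545 and 1573 CPM in *somi2* and 1531 and 1516 CPM in the double mutant. In *mips1*, 5 of the 6 were lower than in Col-0, beside 37.1% of all genes tested: *TUA2* by a log2 fold change of -1.44, *TUA3* of -1.28, *TUA5* of -1.16, *TUA6* of -0.98 and *TUA4* of -0.73. *TUA1*, the alpha-tubulin gene known for its expression in pollen, was higher, as were 36% of all genes, with 41.2 and 43.0 CPM against 28.7 and 32.8 CPM (log2 fold change 0.45, standard error 0.08, edgeR adjusted p = 0.000194). In *somi2*, where 25.6% of all genes were higher and 23.6% lower, *TUA2* (0.28) and *TUA4* (0.38) were higher, *TUA1* (-0.53), *TUA3* (-0.37) and *TUA5* (-0.28) were lower, and *TUA6* was not called (-0.02). In the double mutant against *somi2*, *TUA3* was called lower (-0.25), beside 10.8% of all genes, and the other 5 were not called. The summed level of the alpha-tubulin genes in *somi2* and in the double mutant thus overlapped that in Col-0, while single genes moved in both directions.

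**Figure D5:**
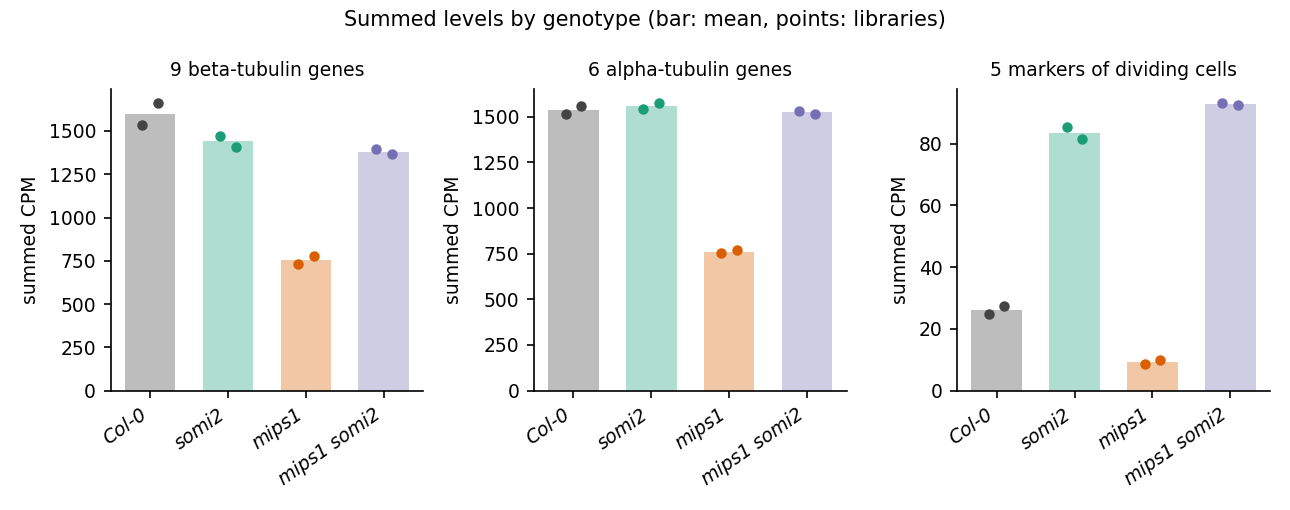
Summed CPM of the 9 beta-tubulin genes, the 6 alpha-tubulin genes and 5 marker genes of dividing cells, with a bar at the mean of the 2 libraries of a genotype and a point per library. The tubulin sums of *mips1* (730 to 779 and 752 to 770 CPM) lie below those of every other library, while the markers of dividing cells rank *mips1*, Col-0, *somi2* and *mips1 somi2* from low to high.

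Other genes of microtubule assembly and use were followed as fixed lists, whose counts in *mips1* stand beside 37.1% of all genes tested that were lower and 36% that were higher. Of the 8 tested *MAP65* genes, whose products bundle microtubules, 8 were lower in *mips1* than in Col-0 (median log2 fold change -1.06), with *MAP65-4* lowest at -1.85. Of 8 augmin genes, which serve the branching of microtubules, 7 were lower (median -0.43), with *QWRF8* at -1.17. Of 11 genes of the gamma-tubulin complex, which nucleates microtubules, 7 were lower (median -0.48), with AT1G20570 at -1.25. The shares of called genes for the folding of tubulin were near or below that of all genes. Of 5 cofactors, 2 were lower, with cofactor A (*KIS*) at -0.75, as were 2 of 6 prefoldin genes (1 in DESeq2), with *PFD1* at -0.61, and 2 of 9 genes of the CCT chaperonin, with AT3G03960 at -0.38. Of 9 genes of microtubule dynamics, 4 were lower (3 in DESeq2), with the plus-end gene *EB1C* at -1.26, and 2 higher. The larger rise was that of *WVD2*, from 0.0478 and 0.141 CPM (2 and 12 counts) to 2.19 and 2.38 CPM. Of 4 genes of cellulose synthesis at the plasma membrane, 3 were lower, with *CESA1* at -0.56. In none of the lists of folding, augmin, gamma-tubulin complex, *MAP65* and cellulose synthesis genes was a member higher in *mips1*.

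In *somi2* the counts of the same lists stand beside 25.6% of all genes higher and 23.6% lower, and differences between lists were not tested. Of the 9 CCT genes, 7 were higher than in Col-0 (6 in DESeq2), with AT3G11830 at 0.57, and none was lower. Of the 11 genes of the gamma-tubulin complex, 6 were higher in edgeR and only 2 in DESeq2, with *GCP4* at 0.70, and of the 8 *MAP65* genes, 3 were higher and 1 lower. The highest was *PLE* (MAP65-3), which acts in the phragmoplast, at 2.05, and the lower one was *MAP65-1* at -0.35. Of the 9 genes of microtubule dynamics, 5 were higher, with *EB1C* at 1.79. Of the 6 prefoldin genes, 3 were higher in edgeR and 1 in DESeq2, *PFD3*, at 0.23. The augmin list had *AUG4* higher (0.27) and 2 genes lower (1 in DESeq2), with *QWRF8* at -1.0. In edgeR *KIS* (-0.18) was the only called folding cofactor and *CESA1* (-0.31) the only called gene of its list, both lower, and DESeq2 also called *CESA3* lower (-0.26, adjusted p = 0.0323).

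Markers of cell types moved with the genotypes. The 5 markers of dividing cells summed to 24.9 to 27.4 CPM in Col-0, 8.58 to 10.003 CPM in *mips1*, 81.4 to 85.4 CPM in *somi2* and 92.4 to 93.1 CPM in the double mutant. All 5 were lower in *mips1*, beside 37.1% of all genes tested, with *CYCA1;1* at -1.86. In *somi2* all 5 were higher, beside 25.6% of all genes, with AT5G06150, a B-type cyclin, at 1.89. The 5 rosette leaf markers summed to 34877 to 36005 CPM in *somi2* and 27739 to 29873 CPM in *mips1 somi2*. All 5 were lower than in Col-0 in each mutant. Of all genes, 37.1% were lower in *mips1*, 23.6% in *somi2* and 30.7% in the double mutant. The largest fall of these markers was that of *RBCS3B* in *mips1* (-2.26) and that of *RCA* in *somi2* (-0.77). The 3 xylem markers summed to 16.0 to 21.7 CPM in Col-0 and 13.5 to 14.8 CPM in *mips1*. They summed to 28.9 to 31.7 CPM in *somi2* and 32.9 to 35.1 CPM in the double mutant. In *mips1*, 2 of the 3 were lower (1 in DESeq2), with *XCP1* at -0.52. In each *somi2* line 3 of 3 were higher, with *IRX1* at 0.77 in *somi2*. Of all genes, 25.6% were higher in *somi2* and 31.1% in the double mutant. The part of these cell types in the tubulin values was not tested.

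Across the 8 libraries, log2 CPM values of the 9 genes were correlated in pairs with Pearson coefficients from -0.64 to 1.00 (median 0.74 over 36 pairs). The libraries fall into 4 genotypes, so that coefficients without *TUB9* rest mainly on 4 genotype means. For *TUB9*, the genotype means ran from 85.2 to 98.5 CPM only. Its replicates in Col-0 (90.7 and 103 CPM) and *mips1* (92.5 and 105 CPM) differed by about as much, so its coefficients also rest on differences between replicates. *TUB5* and *TUB6* (0.99), *TUB2* and *TUB3* (1.00) and *TUB1* and *TUB8* (1.00) were the closest pairs outside those with *TUB7*, which was at 0.98 or 0.99 with *TUB1*, *TUB2*, *TUB3* and *TUB8*. With the sum of all 9 genes, *TUB4* was at 0.52 and *TUB9* at -0.31, while the other 7 were at 0.84 to 0.99. That sum includes the gene itself, so these coefficients are partly built in, most of all for abundant genes. Of 23907 other genes, those whose log2 CPM followed the family's summed level most closely over the 8 libraries were AT5G11420, annotated with a DUF642 domain (0.999), AT1G69160 (0.999), AT1G56670, a GDSL-like lipase (0.998), AT5G14060, an aspartate kinase (0.998), and AT5G25840, with a DUF1677 domain (0.998). Those most like *TUB9* were *JAR1*, which encodes the enzyme that joins jasmonate to isoleucine (0.984), AT1G44820, a peptidase (0.98), *AARE*, an acylaminoacyl-peptidase (0.969), AT2G45260 (0.950) and AT1G53210, a sodium/calcium exchanger (0.945).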

How the data were processed

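The deposited table used here holds raw counts made by the authors. Per the labels, the file header and the study's methods, single-end reads were trimmed with Trimmomatic, mapped to TAIR10 with STAR 2.7.0d and assigned to Araport11 exons with featureCounts 1.6.3, admitting multi-mapped reads and reads over several genes, with a minimum mapping quality of 10 and without use of the strand, although the kit is named as directional. Exon lengths are those deposited beside the counts. The authors' normalized table and their tables of comparisons (log2 fold changes and p-values of their own tests) were not used.

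After TMM scaling, the 23916 genes kept by filterByExpr entered a quasi-likelihood test in edgeR 4.0.16 (robust glmQLFit, R 4.3.3), with all 4 genotypes in 1 fit that left 4 residual degrees of freedom. Each gene had 1 spread shared by all genotypes, although the Col-0 libraries differed most from each other. Standard errors and p-values against Col-0 may therefore be too small. For *TUB7*, the SD in CPM was 12.5 in Col-0 and 1.07 in the double mutant. Its standard error was 0.086 both for *somi2* against Col-0 and for *mips1 somi2* against *somi2*. Genes were called at a Benjamini-Hochberg adjusted p under 0.05 over all genes tested. The script was tested on simulated counts. Totals of 50123257 to 104501879 counts put 3 counts at 0.0287 to 0.0599 CPM, which covers counting error only. DESeq2 1.42.0, RLE size factors, library size only, other filters, the libraries of 2 genotypes alone, a replicate block, a minimum absolute log2 fold change of 1, *TUB2* and *TUB3* as 1 gene, and each library left out in turn were the alternatives. Log2 CPM used for correlations had a prior count of 2.

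Named throughout were the 9 beta-tubulin genes, the 6 alpha-tubulin genes, *MIPS1* and *BIG*, the largest called rise and fall of each other list in *mips1* and in *somi2* against Col-0, and the 5 genes most correlated with the family's sum and with *TUB9*. The members and lists were chosen with earlier results of these data known. Sequences are from RefSeq's copy of TAIR10, in which 99.5% of 37051 nuclear genes had the start and end of the count table. Plots were drawn with matplotlib 3.10.9 under Python 3.11.15, from tables handled with pandas 2.3.3, and sequences were compared with Biopython 1.88.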

Additional observations from a re-analysis of the deposited data

Results flagged for a closer look

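For 8 of the 9 beta-tubulin genes, the effect of *mips1* differed between the *somi2* background and Col-0, by the interaction term of the quasi-likelihood fit in edgeR, with p-values adjusted over all genes tested. The differences of log2 fold change were 2.13 for *TUB1* (standard error 0.12, adjusted p = 1.01e-08), 0.69 for *TUB2* (0.09, adjusted p = 3.16e-05), 1.29 for *TUB3* (0.09, adjusted p = 9.51e-08) and 0.51 for *TUB4* (0.10, adjusted p = 0.00069). They were 1.63 for *TUB5* (0.10, adjusted p = 3.43e-08), 1.41 for *TUB6* (0.09, adjusted p = 5.39e-08), 1.73 for *TUB7* (0.12, adjusted p = 1.07e-07) and 1.18 for *TUB8* (0.10, adjusted p = 5.75e-07).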

How the results depend on the processing

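With 2 libraries per genotype, the lone library of a genotype was assumed to vary like the other genotypes whenever a library was left out, and depth limits *TUB1* in *mips1* most. Scaling by library size alone moved the members' median log2 fold change to -0.90 (*mips1* against Col-0), 0.44 (*somi2* against Col-0), 0.50 (*mips1 somi2* against Col-0), 0.0564 (against *somi2*), 1.17 (against *mips1*) and 1.07 (interaction). It gave 1 higher member in *mips1*, 0 lower members between *mips1 somi2* and *mips1*, and 1 lower member in the interaction. It turned *TUB9* to 0.17 (*somi2*), 0.20 (*mips1 somi2* against Col-0) and 0.0299 (against *somi2*), *TUB6* and *TUB8* to 0.0451 and 0.0564 (*mips1 somi2* against *somi2*) and *TUB4* to 0.000414 (against *mips1*). When calls also needed a log2 fold change of 1 or more in size, 0 members were higher and 0 lower in *somi2* and in *mips1 somi2* against Col-0, and 0 lower against *mips1*. With *TUB2* and *TUB3* as 1 gene, the median was -0.0326 in *mips1 somi2* against Col-0 and 1.202 against *mips1*. With only the libraries compared, 1 member was lower between *mips1 somi2* and *somi2*. Leaving out each library in turn gave medians of -1.32 to -1.17 (*mips1*), 0.08 to 0.27 (*somi2*), 0.03 to 0.23 (*mips1 somi2* against Col-0), -0.05 to -0.04 (against *somi2*), 1.06 to 1.19 (against *mips1*) and 1.22 to 1.32 (interaction), and 0 to 1 lower members against *mips1*. *TUB9* ran from -0.0616 to 0.149 in *mips1*, and *TUB1* and *TUB2* from -0.00161 to 0.106 and -0.0364 to 0.0713 between *mips1 somi2* and *somi2*. Of the values of single members, 235 of 252 kept their direction and side of the threshold when a library was left out, 53 of 54 with DESeq2, 53 of 54 with RLE size factors, 54 of 54 without a filter and 53 of 54 with at least 10 counts in every library. By library size alone 41 of 54 did so and 6 reversed, with the minimum fold 35 of 54, and with only the libraries compared 43 of 45. For the other lists, a comparison of tools chosen after seeing the data, DESeq2 lowered the higher genes in *somi2* from 6 to 2 for the gamma-tubulin complex and from 3 to 1 for prefoldin.

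Replicate numbers were shared by the genotypes. Deviations of same-numbered libraries correlated at -0.22 to 0.21, which does not show a pairing and, without a reference value, cannot exclude one. With the replicate block, all 54 member values kept their call, and 8 members were lower in *mips1* with a median of -1.23.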

Other observations

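*TUB1* and its antisense neighbour AT1G75785 rose and fell in the same libraries. The neighbour had 457 and 875 counts in Col-0 and 151 and 225 in *mips1*, against 915 and 783 in *somi2* and 879 and 819 in the double mutant. Reads in the 609 shared exon bases were given to both genes, so these counts are not a separate measurement. AT1G75770, which shares 11 exon bases with *TUB1*, had 316 and 517 counts in *mips1*, which is 128% and 134% of the *TUB1* counts there, and 31.6% to 45.3% of them in the other libraries. On the other side of the family, the counts of AT5G12240 beside *TUB6* were 20.8% and 20.1% of the *TUB6* counts in *mips1* and 7.31% to 10.2% in the other libraries. How much of these neighbours' reads lay in the shared bases was not tested.

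Among the flower markers, which sum to at most 2.54 CPM, *PI*, a floral organ identity gene, had 0.0716 and 0.0941 CPM in Col-0 (3 and 8 counts). It had 1.96 and 1.86 CPM in *mips1*. *AG* was lower in *mips1* (log2 fold change -2.11, standard error 0.21). In *somi2*, where 25.6% of all genes were higher, *AG* was higher (0.92, standard error 0.17, edgeR adjusted p = 0.000759). The pollen marker *AGP6* was also higher there (1.21, standard error 0.32, edgeR adjusted p = 0.00775). It had 10 and 30 counts in Col-0 and 57 and 43 in *somi2*.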
